A study of Mus musculus with 22 samples.

Results

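The serotonin receptor genes described here are Htr1a, Htr1b, Htr1d, Htr1f, Htr2a, Htr2c, Htr3a, Htr4, Htr5a and Htr7, chosen by name out of the 37786 genes counted in the mouse anterior cingulate cortex (ACC). All 10 had at least 10 counts in at least 10 mice, as did 17524 genes of the whole table. RNA came from bulk ACC of 22 adult male C57BL/6J mice, of which 12 were controls and 10 had been stimulated. Every mouse of both groups had received an AAV5 vector carrying channelrhodopsin-2 fused to EYFP into the basolateral amygdala (BLA) on both sides and an optic fiber in the ACC on one side. The CaMKIIa promoter of that vector drives expression mainly in excitatory neurons. In the stimulated group light was delivered to the BLA terminals in the ACC over 9 sessions, whereas in controls the light stayed off, and the ACC of both hemispheres was taken after the last session although only one side held a fiber. The comparison asks whether repeated activation of this input was accompanied by a change in receptor RNA in the tissue it reaches. Because tissue was bulk, fewer cells of a type and less RNA per cell cannot be told apart.

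Serotonin released by raphe neurons acts on the cortex through receptors of several families. Most are G protein-coupled. Htr1 and Htr5 receptors signal through Gi/o and dampen adenylyl cyclase, Htr2 receptors signal through Gq and phospholipase C, and Htr4 and Htr7 receptors signal through Gs and raise cyclic AMP. Htr3a instead encodes a subunit of a cation channel opened by serotonin. In the cortex Htr1a and Htr2a are known from pyramidal neurons, on which they act in opposite directions, while Htr3a marks a class of GABAergic interneurons. Cell bodies that make serotonin lie in the raphe, so cortical tissue should hold almost none of their RNA.

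The G protein-coupled receptors of this family share an aspartate-arginine-tyrosine motif at the inner end of the third transmembrane helix. Codons for it occurred once in 9 of the 10 genes. The coding sequence around them is shown for 8, without Htr4, because receptors this alike raise the question whether reads can be assigned to one of them. Each stretch has 39 bases, is written 5′ to 3′ on the coding strand, and comes from the GENCODE M21 transcripts on GRCm38, with the motif's codons in capitals.
Htr1a (chr13:105444635-105444673, + strand): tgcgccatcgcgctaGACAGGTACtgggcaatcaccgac
Htr1b (chr9:81632106-81632144, - strand): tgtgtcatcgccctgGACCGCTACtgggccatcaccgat
Htr1d (chr4:136442840-136442878, + strand): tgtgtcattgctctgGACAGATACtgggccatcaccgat
Htr1f (chr16:64926547-64926585, - strand): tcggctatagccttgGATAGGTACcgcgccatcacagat
Htr5a (chr5:27842845-27842883, + strand): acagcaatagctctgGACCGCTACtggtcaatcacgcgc
Htr2a (chr14:74645074-74645112, + strand): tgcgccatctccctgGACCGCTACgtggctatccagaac
Htr2c (chrX:147169656-147169694, + strand): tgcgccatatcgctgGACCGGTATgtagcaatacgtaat
Htr7 (chr19:35970046-36056725, - strand): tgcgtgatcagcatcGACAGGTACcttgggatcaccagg
The Htr7 stretch is divided between 2 exons, and the others lie in 1 exon each. Htr1b and Htr1d were the closest pair, with 35 of 39 bases identical, and Htr2a and Htr2c had 29 of 39 in common. Htr3a, the channel subunit, has no match to the motif in its coding sequence of 1467 bases. Over whole transcripts the longest run of bases shared exactly by 2 of the genes was 26, between Htr2a and Htr2c, followed by 20 between Htr1b and Htr1d. Both runs are shorter than the study's single-end reads before trimming. A further overlap concerned Htr1b, 852 of whose 4724 exon bases lie opposite exons of D430036J16Rik, an antisense gene with 2023 counts over all mice. How strand was treated in counting is not given in the sources used here. Reads in that stretch may have been counted to Htr1b, to its partner or to neither.

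Libraries held between 24563116 and 36542883 counts in controls and between 23090483 and 43668462 in stimulated mice. Their numbers in the labels form one run from 1 to 11, with 6 controls and 4 stimulated mice, and another from 12 to 23, with 6 of each. The study made 2 batches of animals but the labels do not say which mouse belonged to which, so the runs are described only as library numbers. Controls 9 and 11, both from the second run, stood apart from the rest. Their 8 oligodendrocyte markers summed to 19750 and 14530 CPM (counts relative to the TMM-scaled library size), against at most 6302 in every other mouse. Tph2 was at 12 to 60 counts per mouse, while Slc6a4, the serotonin transporter, had at most 10 counts and Fev, a raphe transcription factor, at most 3. All 9 striatal marker genes were detected, at a summed 203.5 to 305.2 CPM, and none of them passed an unadjusted p under 0.05 between groups. Of these, 8 were higher in stimulated mice, at a median log2 fold change of 0.08 against 0.01 for all genes. Without controls 9 and 11, 7 were higher, and 1 of them passed that threshold (3.27% of all genes).

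Levels were set side by side as CPM per kilobase of merged exon, over all 22 mice. Htr3a had the highest mean level, 7.94 ± 1.36 (SD, n = 22), and Htr2a followed at 5.91 ± 2.71. These neighbours overlapped, Htr3a lying above Htr2a in 15 of 22 mice. Htr7, a Gs-coupled receptor, had 4.24 ± 1.20 and Htr1a, the main somatodendritic Gi/o receptor, had 3.68 ± 1.23, with Htr7 the higher of them in 14 of 22 mice. Htr5a, another Gi/o receptor, stood at 2.46 ± 0.56 and lay below Htr1a in 21 of 22 mice. Then came 3 genes whose order depended on the run of library numbers. Htr1b, known as a terminal autoreceptor and heteroreceptor, was at 1.67 ± 0.67. Htr1f was at 1.499 ± 0.39 and Htr2c at 1.27 ± 0.63 over all mice. In library numbers 1 to 11 Htr1f (1.83) lay above Htr1b (1.18) in 10 of 10 mice, and Htr1b above Htr2c (0.836) in 10 of 10. In library numbers 12 to 23 Htr1b (2.08) lay above Htr2c (1.62) in 10 of 12 mice, and Htr2c above Htr1f (1.222) in 11 of 12. Htr4 at 0.41 ± 0.15 and Htr1d at 0.187 ± 0.075 were the lowest, and Htr4 exceeded Htr1d in 20 of 22 mice. The Htr2c level depended on its length, since its merged exons span 9328 bases but its longest transcript 4883. With longest transcripts it was 2.42 ± 1.20, close to Htr5a, and the order of the other genes was the same.

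**Figure D1:**
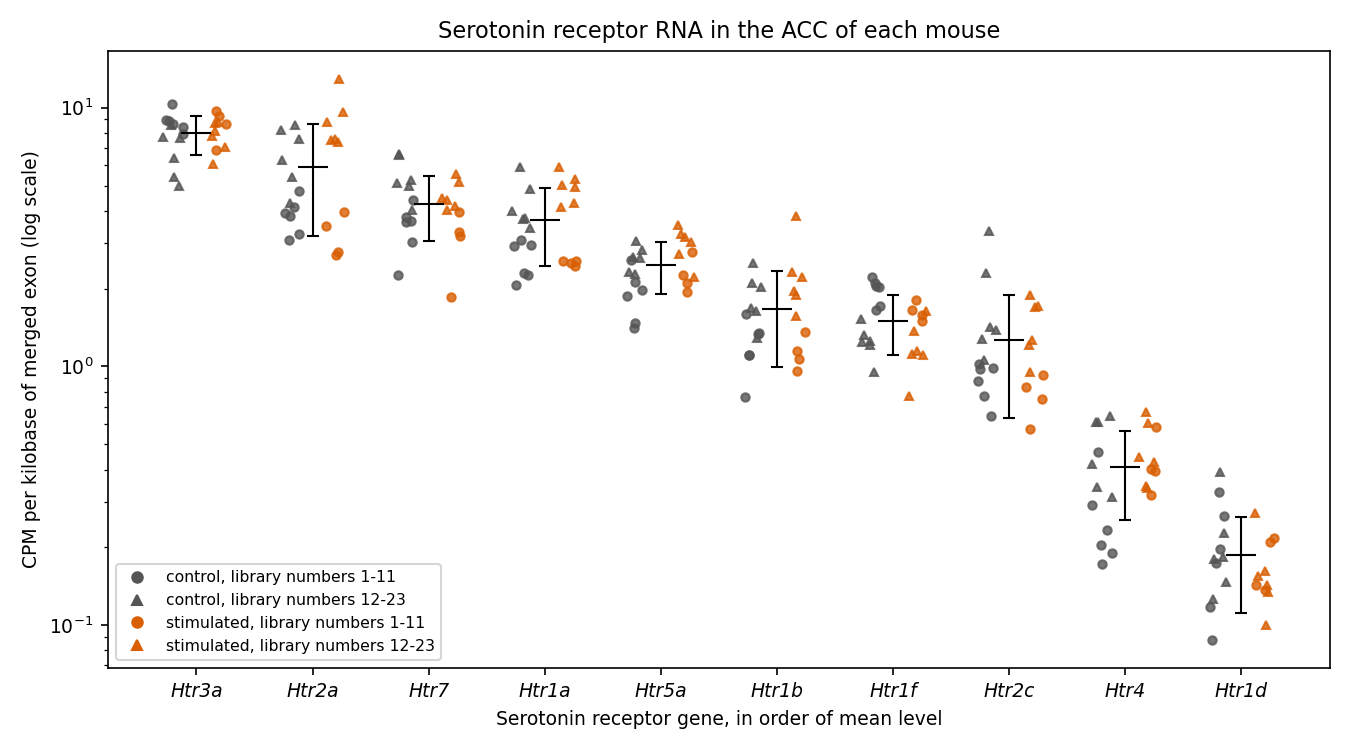
Level of each serotonin receptor gene per mouse, in CPM per kilobase of merged exon on a log scale, with genes in order of their mean. Points are mice coloured by group and shaped by library numbers, and black bars are the mean ± SD of all 22 mice. Htr3a and Htr2a lead at means of 7.94 and 5.91 and Htr1d is lowest at 0.187.

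Low genes rested on few reads. Htr1d had 8 to 42 counts per mouse and Htr4 had 24 to 132, compared with 519 to 1712 for Htr2a. The other 7 genes had between 52 counts (the lowest Htr1f value) and 1041 counts (the highest Htr2c value) per mouse. Of 4 related genes outside the list, Htr5b and Htr6 passed the count minimum, with medians of 2.79 and 2.85 CPM. Htr2b had 0 to 18 counts per mouse and Htr3b, the partner subunit of Htr3a, 0 to 14, with a median of 0 counts.

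No serotonin receptor gene passed an adjusted p under 0.05 between stimulated and control mice in edgeR's quasi-likelihood test with run as a covariate, and neither did any of the 17524 genes tested (0%). At an unadjusted p under 0.05 the count was 1 of 10, Htr5a, against 11.5% of all genes, of which 6.05% were higher and 5.45% lower. DESeq2 called 0 of the 10 after adjustment (0.188% of all genes) and 1 without it (12.5%). Limma voom, run with sample quality weights, called 0 (0.00571%) and 2 (16.3%). Log2 fold changes of the 10 genes (stimulated minus control) had a median of 0.09, with 6 above and 4 below 0, and the median of all genes was 0.01. The tally differed between settings, with 2 above and 8 below 0 (median -0.11) within library numbers 1 to 11, 5 and 5 (median 0.04) within 12 to 23, and 4 and 6 (median -0.01) without controls 9 and 11.

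Htr5a had control values from 7.60 to 16.5 CPM with a median of 12.3. Stimulated mice ranged from 10.4 to 18.9 CPM with a median of 14.8. The groups overlapped over most of their range, and the 3 lowest values were those of controls 1, 2 and 6. The log2 fold change was 0.22 (SE 0.10, 95% confidence interval 0.01 to 0.42), with p = 0.0404 and adjusted p = 0.416 by edgeR. A permutation test of group labels within runs gave a two-sided p of 0.0485. Within library numbers 1 to 11 the log2 fold change was 0.26 (SE 0.17) and within 12 to 23 it was 0.15 (SE 0.12), so both runs gave the same sign and neither passed on its own. Without controls 9 and 11 it was 0.16 (edgeR p = 0.142). Leaving out mice one by one gave 0.15 to 0.25, with p between 0.0174 and 0.144, and the unadjusted call was lost without any one of controls 1, 2, 3, 6, 7, 9 and 11 or stimulated mice 3, 4, 5, 6 and 8.

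The other Gi/o receptors differed by less than the spread between mice. Htr1a had a log2 fold change of 0.10 (SE 0.10, adjusted p = 0.719 by edgeR) and an interval of -0.10 to 0.30. It was 0.03 (SE 0.10) without controls 9 and 11, and 0.05 to 0.14 with single mice left out. The 4 stimulated mice of the first run lay within 10.95 to 11.5 CPM, inside the control range of 9.22 to 13.8 CPM. Htr1b had a log2 fold change of 0.12 (SE 0.15), which was 0.0003 when stimulated mouse 7 was left out and 0.0067 without controls 9 and 11. That mouse had 17.95 CPM of Htr1b, while the other 9 stimulated mice lay between 4.53 and 10.9 CPM. Htr1f, a Gi/o receptor close to Htr1b and Htr1d, had -0.16 (SE 0.11) with an interval of -0.39 to 0.07. Htr1d had -0.28 (SE 0.24), and its interval of -0.78 to 0.22 was the widest of the 10, at a median of 17 counts per mouse. Its highest value was that of control 9 (1.256 CPM), and the log2 fold change was -0.08 (SE 0.24) without controls 9 and 11 and -0.37 to -0.14 with single mice left out.

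Htr2a, the receptor through which hallucinogens act, varied most with the run. Among library numbers 1 to 11, the 6 controls had 17.2, 18.3, 26.8, 23.2, 21.5 and 22.0 CPM and the 4 stimulated mice 15.5, 22.2, 19.5 and 15.1 CPM. In that run the groups overlapped and the log2 fold change was -0.24 (SE 0.14, edgeR p = 0.121). Among library numbers 12 to 23 the controls had 35.3, 42.4, 23.9, 46.1, 30.2 and 48.1 CPM. The 6 stimulated mice of that run ranged from 41.4 to 72.45 CPM with a median of 45.8. Here the log2 fold change was 0.38 (SE 0.17, edgeR p = 0.0401, not past adjustment), again with overlap, and the 2 lowest controls were numbers 9 and 11. Htr2a was the only one of the 10 genes at an unadjusted p under 0.05 in that run, where 12.4% of all genes were. The difference of 0.66 between the runs in this group effect had an SE of 0.25 and an interaction p of 0.0124 in edgeR, with adjusted p = 0.558. Of the 10 genes it alone passed the unadjusted threshold for the interaction, which 8.01% of all genes passed and 0% after adjustment. The 8 oligodendrocyte markers also passed it, in the opposite direction (median -1.30), and their part in the Htr2a value was not tested. Without controls 9 and 11 the Htr2a interaction was 0.44 (edgeR p = 0.063) and the median of the markers -0.38, and the log2 fold change over both runs went from 0.13 (SE 0.14) to -0.02 (SE 0.12).

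Htr2c, the other Gq receptor of the list, had 31.1 and 21.3 CPM in controls 9 and 11 and at most 17.6 CPM in every other mouse. Controls ranged from 5.98 to 31.1 CPM with a median of 9.72, and stimulated mice from 5.35 to 17.6 CPM with a median of 10.1. Its log2 fold change of -0.25 (SE 0.16, adjusted p = 0.549 by edgeR) became -0.01 (SE 0.13) without those 2 controls.

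**Figure D2:**
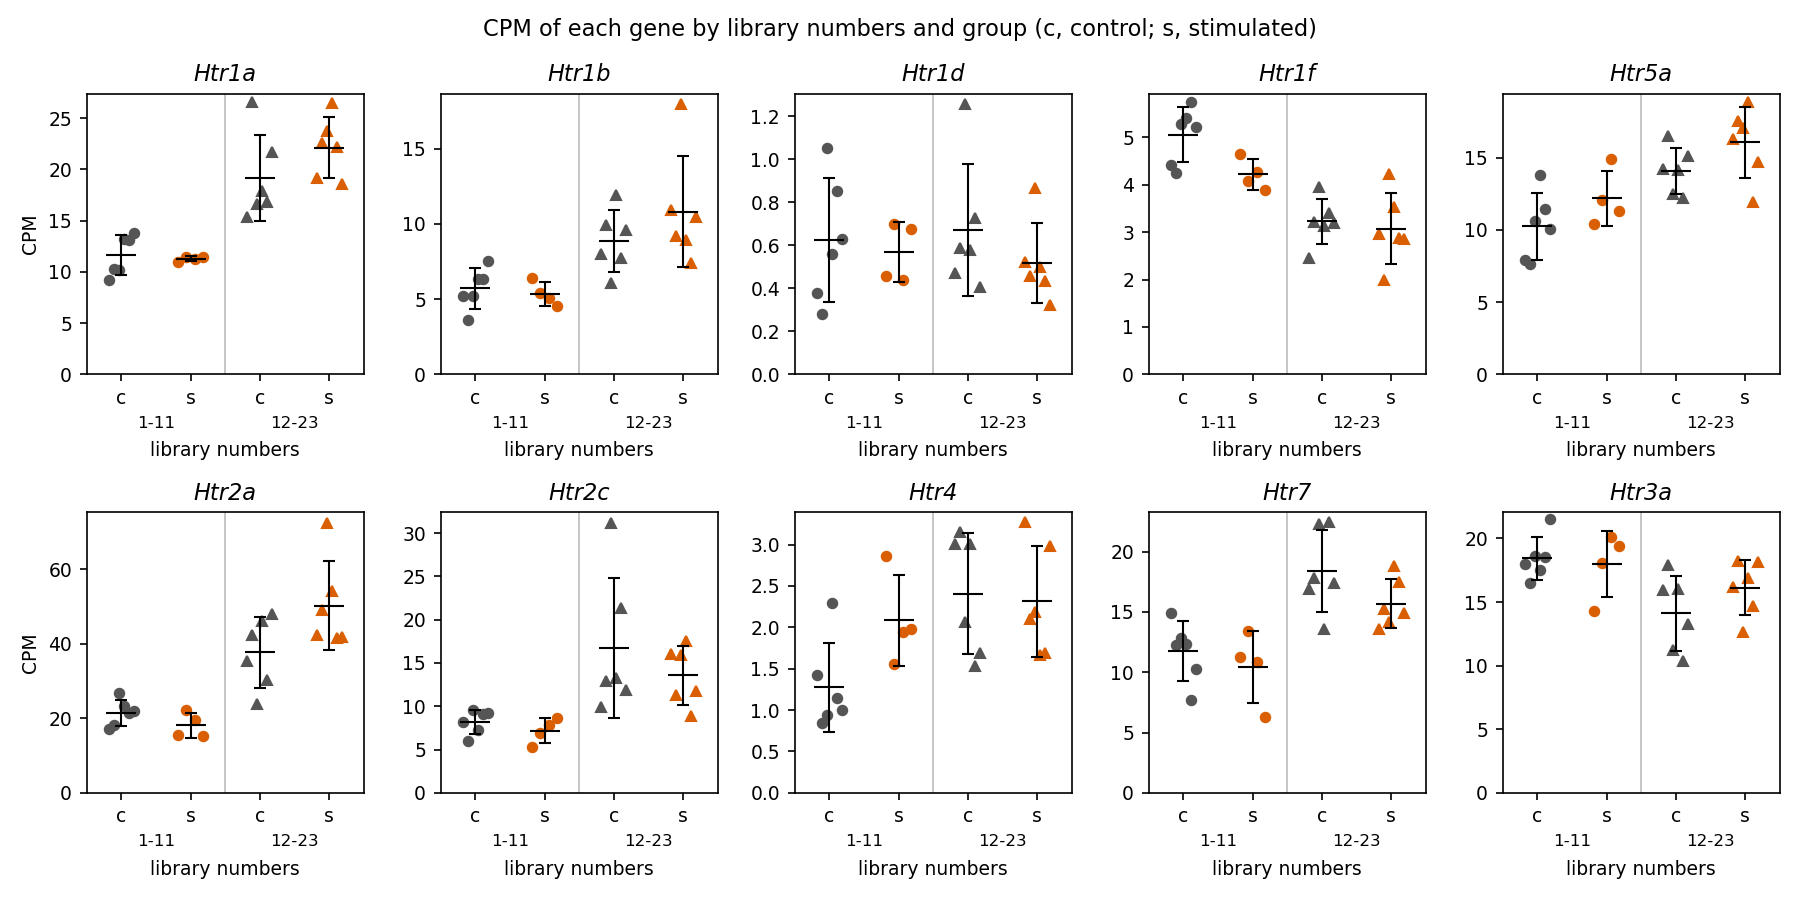
CPM of the 10 genes per mouse, with controls (c) and stimulated mice (s) of library numbers 1 to 11 on the left and 12 to 23 on the right of each panel. Bars are the mean ± SD of the 4 to 6 mice in a column. Controls and stimulated mice overlap in each panel when both runs are taken, and Htr1a is the gene whose runs do not overlap.

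The Gs receptors showed no difference beyond the spread between mice over both runs. Htr4 had a log2 fold change of 0.29 (SE 0.20, adjusted p = 0.581 by edgeR) and an interval of -0.13 to 0.70. In library numbers 1 to 11 its controls were at 1.43, 0.845, 0.938, 2.29, 1.14 and 1.0 CPM and the stimulated mice at 2.86, 1.56, 1.94 and 1.98 CPM. In those 10 mice 5 of 6 controls lay below every stimulated mouse, and control 4 lay among them. The log2 fold change there was 0.72 (SE 0.30, edgeR p = 0.0322, not past adjustment), the only one of the 10 at an unadjusted p under 0.05 in that run, against 5.56% of all genes. In library numbers 12 to 23 it was -0.08 (SE 0.24), where controls spanned 1.53 to 3.15 CPM and stimulated mice 1.66 to 3.27 CPM. The group effect of Htr4 differed between the runs by -0.75 (SE 0.38, interaction p = 0.0623 in edgeR), and by -0.96 (p = 0.0232) without controls 9 and 11. Htr7, expressed in thalamic and limbic areas besides cortex, had -0.20 (SE 0.12, adjusted p = 0.515) and an interval of -0.45 to 0.04. Controls 9 and 11 had its highest values, 22.3 and 22.5 CPM, and without them the log2 fold change was -0.13 (SE 0.12).

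Htr3a ranged from 10.4 to 21.5 CPM in controls (median 17.0) and from 12.6 to 20.1 CPM in stimulated mice (median 17.5). Its log2 fold change was 0.09 (SE 0.09, adjusted p = 0.733 by edgeR), and its interval of -0.11 to 0.29 was the narrowest of the 10. Controls 11 and 9 gave the lowest values, 10.4 and 11.3 CPM, and without them the log2 fold change was -0.01 (SE 0.08).

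**Figure D3:**
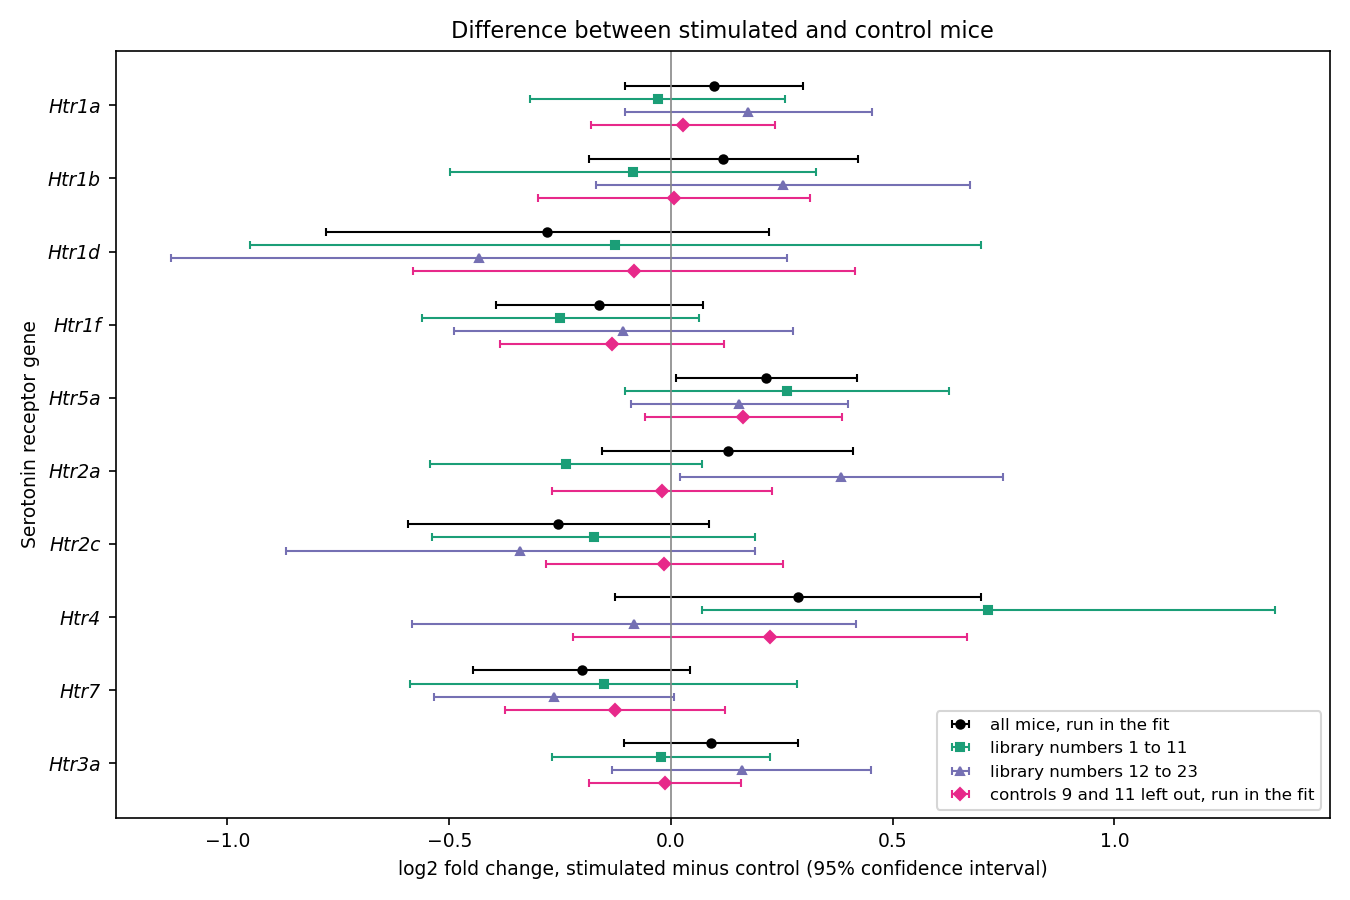
Log2 fold change (stimulated minus control) of each gene with its 95% confidence interval from edgeR, over all mice with run in the fit, within each run, and without controls 9 and 11. The estimate lies above 0 in all 4 fits for Htr5a, whose interval crosses 0 in 3 of them, and below 0 in all 4 for Htr1d, Htr1f, Htr2c and Htr7. Htr2a is at -0.24 in the first run and 0.38 in the second, and Htr4 at 0.72 and -0.08.

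Oligodendrocyte markers differed between groups in the same libraries. Each of the 8 was lower after stimulation at an unadjusted p under 0.05 (median log2 fold change -0.71), where 5.45% of all genes were, and 0 passed after adjustment in edgeR. The difference lay mostly in the second run, where the median sum was 5138 CPM in controls and 3644 CPM in stimulated mice, compared with 4629 and 4239 CPM in the first. All 8 had an interaction below 0 at an unadjusted p under 0.05 (3.23% of all genes), with a median of -1.30 on the log2 scale and 0 after adjustment. Both differences rested largely on controls 9 and 11. Without them the median log2 fold change was -0.16, with 1 of 8 lower at an unadjusted p under 0.05 (4.46% of all genes), and the median interaction was -0.38, with 4 of 8 below 0 at that threshold (2.1% of all genes), again 0 after adjustment by edgeR. Their summed level ranged from 3211 to 19750 CPM in controls and from 2356 to 5820 CPM in stimulated mice, and every one of them was detected. Receptor levels followed this sum to different degrees, described here without a test as the correlation of log2 values over the 22 mice after the mean of each group in each run had been subtracted. Points share libraries, and each CPM shares its library's total with the sum. Htr2a had r = -0.749 (Spearman's rho -0.680), and -0.562 over the 20 mice without controls 9 and 11, which lay farthest from the median sum. Htr5a, the gene at an unadjusted p under 0.05, had r = -0.580 (rho -0.596) and -0.625 without them. Htr1a (-0.561 and -0.585) and Htr1b (-0.613 and -0.547) had similar values with and without those mice. By contrast Htr3a went from -0.599 to -0.188 without them, and 4 genes turned sign, Htr2c from 0.459 to -0.413, Htr1d from 0.193 to -0.445, Htr1f from 0.127 to -0.306 and Htr4 from -0.254 to 0.017. The values of these 5 over all mice rested on those 2 controls. Htr7 had 0.516 and 0.369. Leaving out controls 9 and 11 left 0 of 10 receptor genes at an unadjusted p under 0.05, where 3.27% of all genes were higher and 4.46% lower. The part of the marker difference in the receptor values was not tested further.

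Fewer of the neuron markers passed the unadjusted threshold. Of the glutamatergic markers 2 of 6 were higher in stimulated mice at an unadjusted p under 0.05, Neurod2 (0.23, p = 0.0082) and Slc17a7 (0.16, p = 0.0177) by edgeR, and of the GABAergic markers 2 of 5, Slc32a1 (0.31, p = 0.00513) and Sst (0.24, p = 0.042), where all genes gave 6.05%. None of these 4 passed after adjustment, the other 7 did not pass either threshold, and Slc17a7 was at 0.10 (p = 0.107 by edgeR) without controls 9 and 11. Their part in the receptor values was not tested. Markers of interneurons of the Htr3a type summed to 695.4 to 1588 CPM in controls and 905.8 to 1767 CPM in stimulated mice, with 3 of 10 higher and 1 of 10 lower at an unadjusted p under 0.05, against 6.05% and 5.45% of all genes, and with 2 higher and 1 lower without controls 9 and 11, against 3.27% and 4.46%. Of the 6 layer markers of deep cortex 1 was lower, Tle4, which lost this call without those mice (p = 0.0972 by edgeR), and upper layer, astrocyte, microglia and endothelial markers gave 0 of 5 each by edgeR. The choroid plexus lies in the ventricles and is rich in Htr2c. Of its 10 markers 6 could be tested and 2, Ttr and Clic6, were lower in stimulated mice at an unadjusted p under 0.05 (5.45% of all genes). Ttr, its most abundant transcript, was at 2.07 to 127.4 CPM in controls and 1.41 to 13.8 CPM in stimulated mice. The 10 summed to 8.53 to 139.8 CPM in controls and 7.88 to 19.6 CPM in stimulated mice. The highest sum was that of a control of library numbers 1 to 11, where no mouse had more than 9.52 CPM of Htr2c. In library numbers 12 to 23 controls summed to at most 54.7 CPM. The part of these markers in the Htr2c values was not tested.

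**Figure D4:**
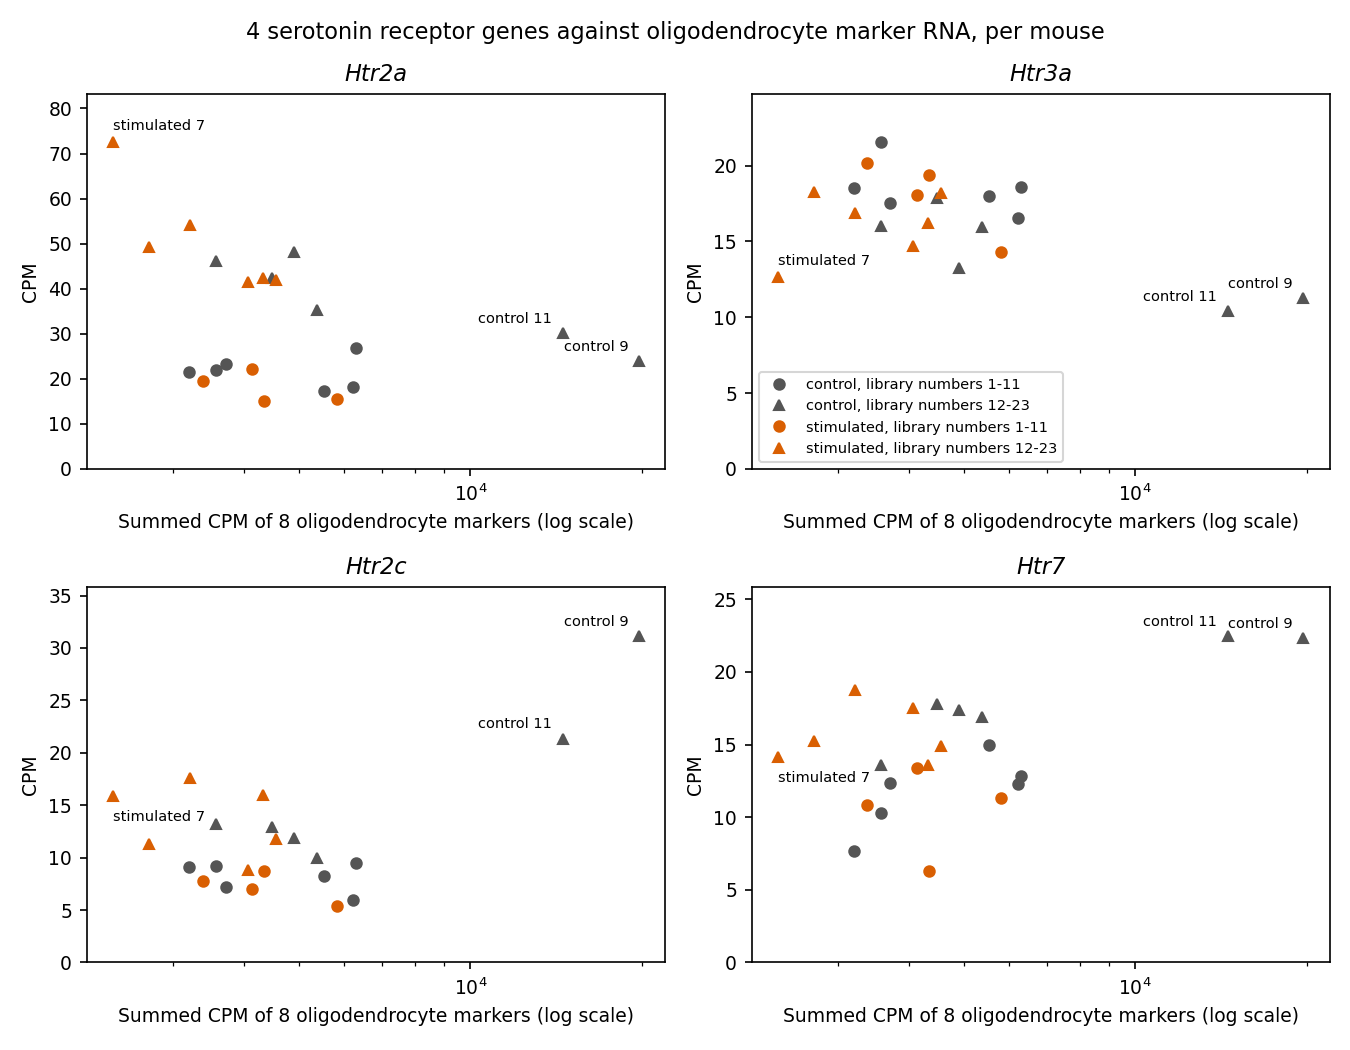
CPM of Htr2a, Htr3a, Htr2c and Htr7 in each mouse against the summed CPM of 8 oligodendrocyte markers on a log scale, coloured by group and shaped by library numbers. Controls 9 and 11, at sums of 19750 and 14530 CPM, have the highest Htr2c and Htr7 values and the lowest Htr3a values.

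Most receptor genes differed in level between the runs of library numbers. After adjustment 9 of 10 did so, compared with 68.1% of all genes. Of the 9, 7 were higher in library numbers 12 to 23, where 33.7% of all genes were, and 2 were lower, where 34.3% were. Htr1a was the gene whose runs did not overlap, at 9.22 to 13.8 CPM in the first and 15.4 to 26.55 CPM in the second, and 26.1% of all genes showed such a gap. Its log2 difference was 0.83 (SE 0.10, adjusted p = 4.13e-08 by edgeR). Htr2a had the greatest difference, 1.099 (SE 0.14), followed by Htr2c at 0.98 (SE 0.17), then Htr1a, and Htr1b at 0.80 (SE 0.15). Without controls 9 and 11 Htr2c was at 0.75 (SE 0.13), below Htr1b at 0.92 and Htr1a at 0.91. Htr7, Htr4 and Htr5a were higher by 0.62, 0.56 and 0.43 on the log2 scale.

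The genes with lower RNA in the second run were Htr1f, by a log2 difference of -0.56 (SE 0.11), and Htr3a, by -0.28 (SE 0.09). Htr3a lost its call without controls 9 and 11, at -0.17 (adjusted p = 0.0682 by edgeR, against 0.00138 to 0.0324 with single mice left out), and the other 8 kept an adjusted p under 0.05. Htr1d, at -0.01 (SE 0.24), was not distinguishable between the runs at its depth. The glutamatergic markers summed to 2904 to 3722 CPM in the first run and 4648 to 7664 CPM in the second, of which Camk2a and Slc17a7 made up the most. After adjustment 4 of these 6 were higher in the second run and 1 was lower, Neurod2 at -0.47 (SE 0.08), where 33.7% of all genes were higher and 34.3% lower. Markers of Htr3a-type interneurons summed to 1220 to 1767 CPM in the first run and 695.4 to 1183 CPM in the second, while 4 of the 10 were higher and 4 lower after adjustment, not far from those shares of all genes, and their median log2 difference was -0.05. Cck (-1.11) and Npy (-1.06) were among those lower, and Reln (1.351) and Prox1 (1.13) among those higher. Their part in the receptor differences was not tested. The order of the receptors also differed. In the first run Htr3a lay above Htr2a in 10 of 10 mice (8.76 against 3.59 CPM per kilobase), and in the second Htr2a lay above Htr3a in 7 of 12 (7.84 against 7.26).

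Other genes of serotonin signalling, before and after the receptors, formed 6 lists with 53 genes, 50 of which could be tested. By edgeR 3 of the 50 were higher and 2 lower at an unadjusted p under 0.05, a share below the 11.5% of all genes, with 0 after adjustment, and their median log2 fold change was 0.04. DESeq2 gave the same counts (12.5% of all genes), and limma voom 6 higher, 1 lower and 0 after adjustment (16.3% of all genes). Among 9 testable genes of serotonin synthesis, uptake and breakdown, Slc22a3, a low-affinity organic cation transporter, had 0.63 (SE 0.21, p = 0.0066, adjusted p = 0.333). Ddc, which decarboxylates 5-hydroxytryptophan and L-DOPA, had -0.42 (SE 0.16, p = 0.0137, adjusted p = 0.353). Controls ranged from 6.66 to 14.9 CPM for Ddc and stimulated mice from 3.74 to 9.74 CPM, so that the groups overlapped, and without controls 9 and 11 its log2 fold change was -0.24 (p = 0.0883 by edgeR). Maoa and Maob, the enzymes that degrade serotonin, had -0.01 (SE 0.07) and -0.11 (SE 0.09).

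The other genes at an unadjusted p under 0.05 were 2 higher and 1 lower of the 10 in the Gs arm, where all genes gave 6.05% higher and 5.45% lower, and no difference between arms was tested. Gnas, the Gs alpha subunit, had a log2 fold change of 0.20 (SE 0.06, p = 0.00234, adjusted p = 0.325 by edgeR), and its near relative Gnal had 0.14 (SE 0.06, p = 0.0219, adjusted p = 0.369), or 0.09 (p = 0.107) without controls 9 and 11. The counted level of Gnas was low, at 10.2 to 19.2 CPM per mouse against 98.2 to 187.2 CPM for Gnal. What part of Gnas RNA those counts hold was not tested. Adcy1, a calmodulin-activated adenylyl cyclase, had -0.17 (SE 0.08, p = 0.0374, adjusted p = 0.412). In the Gi/o arm edgeR gave 0 of 8 at that threshold, and Gnao1, the main Go alpha subunit of brain, had 0.01 (SE 0.05). In the Gq arm the count was 0 of 9, with Gnaq at 0.05 (SE 0.07) and Plcb1 at 0.07 (SE 0.10). Partners and regulators of the receptors gave 0 of 12. They include S100a10, which binds Htr1b and Htr4 and had 0.15 (SE 0.10), and Adarb1, which edits Htr2c RNA and had -0.09 (SE 0.07). Of the other receptor genes, Htr5b had -0.28 (SE 0.23) and Htr6 had 0.27 (SE 0.16), with adjusted p of 0.654 and 0.52.

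Genes that varied most like each receptor were sought over the 22 mice, by Pearson correlation of log2 CPM after the mean of each group in each run had been subtracted. For each receptor the genes ranked first, and for some the second, out of all other genes tested are given, and each value carries no test and comes from libraries that also share depth. Htr5a had the closest match, Foxp1 at r = 0.916, and Htr2a was matched by Casd1 at 0.907 and Slc39a10 at 0.901. Htr1b went with Creg2 (0.894) and Met (0.840), Htr1a with Pak7 (0.863), and Htr7 with B3glct (0.868). The Htr2c pattern was most like that of Rtkn (0.861) and Bin1 (0.829), and controls 9 and 11 were the highest mice of Htr2c. Htr3a was most like Trappc1 (0.839), Htr1f like Tpm3-rs7 (0.827) and Htr1d like Fam98a (0.809). Htr4, a low gene, had the weakest best match, Zfp882 at 0.733. Among the receptors themselves Htr1d and Htr2c varied most alike (r = 0.718), then Htr1b and Htr2a (0.655). Control 9 had the highest value of both Htr1d and Htr2c, and Htr1d had only 8 to 42 counts per mouse.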

How the data were processed

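Libraries were prepared from 5 ng of total RNA per mouse as full-length cDNA with 10 PCR cycles. Per the methods and processing notes, trimming was done by the authors with cutadapt 1.10, alignment to mm10 with STAR 2.5.3a, and counting of uniquely aligned reads by gene with HTSeq 0.6.1p1. The authors deposited whole-number counts per mouse, which were used here. They also deposited the counts divided by size factors (a signal without depth) and fold changes with p-values of their own DESeq2 1.22.1 comparison, which were not used. Unique alignment leaves out reads shared by near-identical genes. Full-length cDNA counts grow with transcript length, so levels between genes were divided by merged exon length in GENCODE M21 on GRCm38, where 37772 of 37786 identifiers were found.

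The deposited counts were tested with edgeR 4.0.16 (R 4.3.3, TMM, glmQLFit, glmQLFTest) with group and run of library numbers as terms, over genes reaching 10 counts in no fewer than 10 mice, and p-values were adjusted over all of these by Benjamini-Hochberg. The study's fit held batch and RNA integrity, neither of which was used here. Intervals are 95% limits from the quasi-likelihood degrees of freedom, and CPM values are TMM-scaled. Permutations within runs used log2 CPM (prior count 2) and 100000 resamples. Alternatives were group alone, 1 surrogate variable (sva 3.50.0), DESeq2 1.42.0 and limma 3.58.1 voom with sample quality weights. Further ones were other count minimums, a replicate block without run, single runs and single mice left out. Leaving out controls 9 and 11, for receptors and all lists, and the correlations with oligodendrocyte markers were added after seeing the data.

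The 10 receptors, the signalling and marker lists and the tests were chosen with earlier results of these data known. Named genes were the receptors, genes of those lists, and for each receptor up to 3 genes most like it. The table held 0 columns of other samples.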

Additional observations from a re-analysis of the deposited data

Results flagged for a closer look

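In 50 groups of 4 to 10 mice, the gap between the highest or lowest value and its neighbour was compared with the range, and chance alone would mark about 1 in 20. Of the 50, 3 were marked, close to that rate. Htr1b in stimulated mouse 7 was far above the other stimulated mice at 17.95 CPM, both among all 10 of them and within library numbers 12 to 23. These groups are nested, so this value was marked more than once. For Htr1d the same mouse, at 0.8657 CPM, was far above the other 5 stimulated mice of its run but below control 9 of that run (1.256 CPM). Stimulated mouse 7 also had the lowest summed oligodendrocyte markers (2356 CPM) and the smallest library (23090483 counts), and the part of these in its receptor values was not tested.

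Htr2a was marked because its group effect differed between the runs, by 0.6638 on the log2 scale with an unadjusted interaction p of 0.0124 and an adjusted p of 0.558 in edgeR. The effect was below 0 in library numbers 1 to 11 and above 0 in 12 to 23. The 8 oligodendrocyte markers had interactions in the opposite direction at an unadjusted p under 0.05, with a median of -1.30 and 0 after adjustment. Without controls 9 and 11 the Htr2a difference was 0.44 and the median of the markers -0.38, and their part in the Htr2a value was not tested.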

How the results depend on the processing

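After adjustment 0 of 10 receptor genes differed between groups under each alternative run. The count at an unadjusted p under 0.05, 1 in the main comparison, was 0 with group as the only term, 2 with limma voom (Htr1f and Htr5a), 2 with the replicate block (Htr1a and Htr5a), 0 without controls 9 and 11, and 0 to 2 with single mice left out. The block fit held no term for run and left out controls 11 and 12. Its replicates 5 and 6 each joined a control of library numbers 1 to 11 with a stimulated mouse of 12 to 23. Replicate numbers were not taken to pair the mice, because the labels tie them to no shared batch and not every same-numbered pair correlated above 0.1 (8 of 10 pairs, and 3 of 10 after the mean of each group in each run had been subtracted). For the signalling lists the count of 5 became 2 with group alone, 9 with 1 surrogate variable, 1 within library numbers 1 to 11, 3 without controls 9 and 11, and 4 to 9 with single mice left out. For the interaction the count of 1 became 2 without a count minimum, 2 with at least 10 counts in every mouse, 2 with DESeq2, and 1 to 2 with single mice left out. Among the receptors and the 5 signalling genes at an unadjusted p under 0.05 in the main comparison, some log2 fold changes turned sign. These were Htr1a (-0.030), Htr1b (-0.085), Htr2a (-0.24) and Htr3a (-0.023) within library numbers 1 to 11, Htr4 (-0.084) within 12 to 23, Htr2a (-0.020) and Htr3a (-0.013) without controls 9 and 11, and Htr3a (-0.023) and Adcy1 (0.17) with the replicate block, which held no run term. Of the other signalling genes, Gnao1 (-0.015) and Tph2 (0.22) were among those that turned sign without controls 9 and 11. The run difference of Htr1d lay between -0.152 and 0.0656 with single mice left out. The causes of these changes were not tested. Over all genes, 1060 higher and 955 lower at an unadjusted p under 0.05 became 175 and 457 with group alone, 650 and 641 with the replicate block, and 566 and 773 without controls 9 and 11. They became 1670 and 1108 with 1 surrogate variable, and 388 and 586 within library numbers 1 to 11. DESeq2 called 33 genes after adjustment and voom 1, where edgeR called 0, and 1 without controls 9 and 11. Counts per mouse of Htr1d and Htr4 limit what could be seen for them.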
